A study of Mus musculus with 12 samples.

Results

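Hprt, Pgk1, G6pdx, Prps1 and Rps4x are X-linked genes used by nearly all cells, and their allele use was followed here from fibroblasts through reprogramming. The members are the single-base variants, covered by at least 20 reads, that the deposited tables assign to these genes: 59 sites of 6478 on the X chromosome, in 5 genes of 399. Hprt had 11 sites, Pgk1 had 1, G6pdx had 22, Prps1 had 21 and Rps4x had 4. The G6pdx sites are named in the tables for both Ikbkg and G6pdx, genes that overlap, and all 22 lie in G6pdx exons.

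Poly(A) RNA was sequenced from fibroblasts of mouse embryos (MEF) and from cells under reprogramming with SeVdp(fKOSMaB), a Sendai virus vector for reprogramming factors. The groups were MEF at day 0 without vector or agent (2 libraries, MEF1 and MEF2), LowK with the vector and no agent at days 35, 52 and 56, MidK1 with the vector and 30 nM Shield1 on those same days, and MidK2, likewise with vector and 30 nM Shield1, at days 18, 22, 29 and 36. Shield1 is a small molecule that stabilises proteins carrying a destabilising domain. Each reprogrammed day is 1 library, so tests on reads compare libraries and not conditions, and nothing in the labels says that MEF1 and MEF2 were separate cultures. Strains, sex of the embryos and the use of feeder cells were not given in the sources used here. The tables list X-linked variants only, so the cell type could not be checked against markers.

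In female mammals 1 X chromosome of each cell is silenced, so that a heterozygous site in RNA is read from the active copy alone, and reprogramming to pluripotency can reactivate the silent copy. Hprt recycles purine bases, Prps1 makes the phosphoribosyl donor that Hprt and nucleotide synthesis use, G6pdx is the entry enzyme of the pentose phosphate pathway, Pgk1 is a glycolytic kinase, and Rps4x is a protein of the small ribosomal subunit. Genes of this kind are classical reporters of X inactivation, because every cell expresses them and their products were long used to tell which X is active. The measure used throughout is the reference share: the percentage of reads over a site that did not carry the variant allele. A low reference share means that nearly all reads carried the variant. Sites with no variant reads are not listed, and a site where both chromosomes carry the variant would look like a site whose reference copy is silent.

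The sites on which the results turn are shown in 21-base windows on the transcript strand, 5′ to 3′, with the reference base at the variable position 11 in capitals (counted from 1 at the 5′ end of the window). They were read from the GENCODE M21 transcripts of GRCm38, the assembly called mm10 in the submitters' processing notes. They are the best-covered sites per gene that were listed in at least 10 tables and were not over 90% variant everywhere, or the only such site, and for Pgk1 its single site.
Hprt chrX:53021117-53021117, 3′ UTR in exon 9, T11A: aagcctaagaTgagcgcaagt
Hprt chrX:53021069-53021069, coding sequence in exon 9, C11T: atttgaatcaCgtttgtgtca
Pgk1 chrX:106187268-106187268, coding sequence in exon 1, G11A: tttccaacaaGctgactttgg
G6pdx chrX:74410053-74410053, minus strand, 3′ UTR in exon 13, T11G: gttcctgggcTtggaccgcca
G6pdx chrX:74409974-74409974, minus strand, 3′ UTR in exon 13, T11C: accaggcattTaaaactcatt
Prps1 chrX:140475703-140475703, 3′ UTR in exon 7, G11C: aaacatagttGagcatcctgt
Prps1 chrX:140456691-140456691, 5′ UTR in exon 1, T11A: gttcccgtgtTggcagcggcg
Rps4x chrX:102188317-102188317, minus strand, coding sequence in exon 2, C11T: acattggatgCtggataagtt

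Of the 59 sites, 27 lay in coding sequence, 29 in 3′ UTRs and 3 in 5′ UTRs. Among the coding sites 20 were synonymous and 7 changed the amino acid. The changes were transitions at 40 sites and transversions at 19, and the reference base matched the GENCODE transcript at all 59. The genes lie far apart on chromosome X of mm10: G6pdx at chrX:74409483-74429194 (minus strand), Hprt at chrX:52988137-53021659 (plus strand), Rps4x at chrX:102184941-102189394 (minus strand), Pgk1 at chrX:106187100-106203699 (plus strand) and Prps1 at chrX:140456613-140476140 (plus strand).

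The sites were of unequal value for reading allele use. Of the 59, 36 were listed in at least 10 of the 12 tables and 20 in all 12. At 28 sites the variant exceeded 90% of reads in every table that listed them, so these may not be informative: 1 of 11 in Hprt, the single Pgk1 site, 9 of 22 in G6pdx, 15 of 21 in Prps1 and 2 of 4 in Rps4x. In contrast, 10 sites that appeared in 1 table only were at least 80% reference there. Rps4x chrX:102186535-102186535 was listed at 85.7% reference in MEF2 and 88.0% in LowK D52 with 1 variant base, and at 72.7% in LowK D35 with another. Because such sites add almost pure reference reads to a sum, the shares below are summed over the 36 sites listed in at least 10 tables, a choice made after the values were seen, and the sums over every listed site are given where they differ. The sites marked as possibly not informative stay in these sums. They are 9 of the 12 G6pdx sites summed, 2 of 3 in Rps4x, 1 of 10 in Hprt and most of the 11 in Prps1.

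Hprt was the member whose allele use varied most. Its 10 sites listed in all tables had 410 to 1498 reads per library in sum. The Hprt reference share was 0.976% in MEF1 and 0.361% in MEF2, that is 4 of 410 and 3 of 830 reads. In LowK it was 2.57% at day 35, 2.54% at day 52 and 3.16% at day 56. In MidK1 it was 5.01%, 4.32% and 7.14% on the same days. In MidK2 it was 7.81% at day 18, 13.1% at day 22, 8.0% at day 29 and 0.923% at day 36. All reprogrammed libraries except MidK2 D36 were above both MEF libraries, and MidK2 D36 lay between MEF1 and MEF2. Ordered by level, MidK2 D22 stood apart (95% Wilson interval 11.4 to 15.1%), while the other 10 of 11 neighbouring pairs in the order had overlapping intervals. Those intervals cover counting error at most. They are too narrow even for that, because reads carry no molecular identifiers and neighbouring sites share reads.

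**Figure D1:**
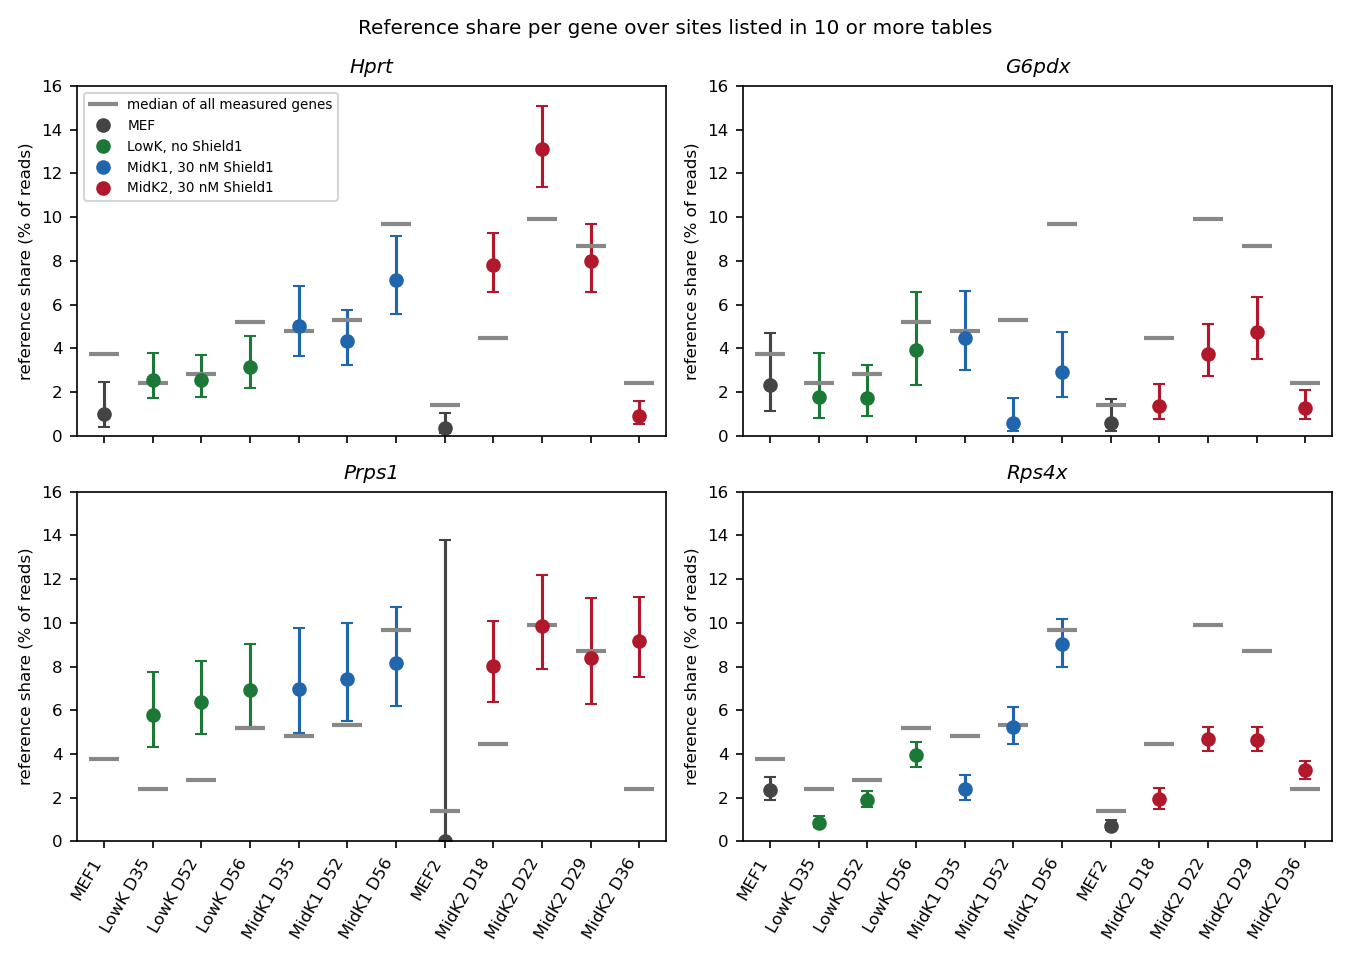
Reference share in % of reads (vertical axis) of Hprt, G6pdx, Prps1 and Rps4x in each of the 12 libraries (horizontal axis), summed over sites listed in at least 10 tables, with 95% Wilson intervals as bars and the median of all measured genes as grey dashes. Hprt peaks at 13.1% in MidK2 D22 and is at 0.923% in MidK2 D36, and Rps4x peaks at 9.03% in MidK1 D56.

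The course of Hprt was carried by most of its sites and not by a single position. From MidK2 D18 to D22 the share was higher at 9 of the 10 sites, from D22 to D29 it was lower at 8, and from D29 to D36 it was lower at all 10. MidK2 D22 had the highest share of the 12 libraries at 7 of the 10 sites. Site shares there ran from 2.94 to 18.9% with a median of 12%, and in MidK2 D36 from 0 to 2.60% with 4 sites at 0. In each MEF library 7 of the 10 sites were at 0, at 27 to 73 reads each in MEF1 and 22 to 116 in MEF2. At the site chrX:53021117-53021117, whose window is shown above, the share was 0% in MEF1 and MEF2, 8.29% in MidK2 D18, 18.9% in D22, 10.3% in D29 and 0.952% in D36. The 10 sites are not independent: 9 of them lie in the last exons within a short stretch of the mRNA, and several can fall on the same read pair.

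**Figure D2:**
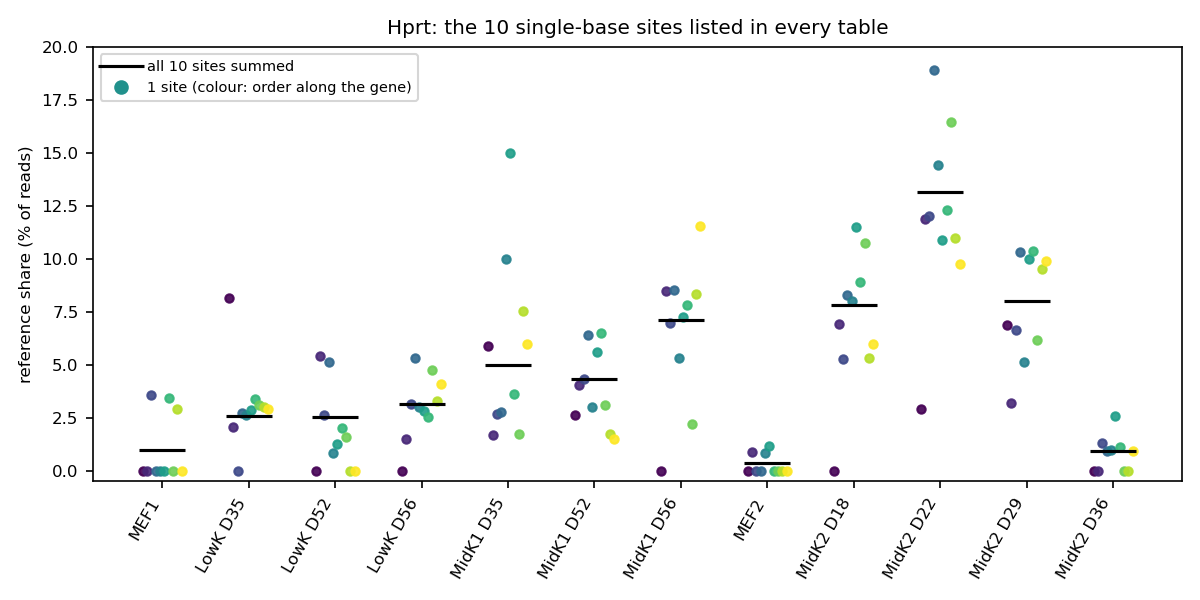
Reference share in % of reads (vertical axis) of each of the 10 Hprt sites listed in every table (points, coloured by position along the gene) in the 12 libraries (horizontal axis), with the sum over the sites as a black dash. In MidK2 D22 the sites run from 2.94 to 18.9%, and in MidK2 D36 from 0 to 2.60%.

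Hprt also carried variants longer than a base, which the rule leaves out and which were listed beside the sites. A replacement of chrX:53021237-53021238 in the 3′ UTR, listed in all 12 tables, followed the same course: its reference share was 0% in MEF1 (0 of 36 reads) and 0.962% in MEF2, 9.32% in MidK2 D18, 16.5% in D22, 9.70% in D29 and 1.04% in D36. An insertion between chrX:53021115 and 53021116 did not sit at the same level. Its reference share was 15.3 to 34.7% in all 12 libraries, including 31.3% in MEF1 and 17.6% in MEF2, although the single-base site beside it was at 0% in both. Without the single-base site within 10 bases of this insertion, the Hprt shares of MidK2 were 7.74, 12.2, 7.67 and 0.918%, against 0.420% in MEF2.

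Rps4x had the deepest coverage and the narrowest intervals. Its 3 sites listed in all tables had 2647 to 7112 reads per library in sum. The sites chrX:102188312-102188312 and chrX:102188317-102188317 can fall on the same read, which is then counted at both. The 3 sites are therefore not independent, and the intervals are too narrow even for counting error. The Rps4x reference share was 2.35% in MEF1 and 0.715% in MEF2. In LowK it was 0.867% at day 35, 1.91% at day 52 and 3.95% at day 56, and in MidK1 it was 2.40%, 5.24% and 9.03%. In MidK2 it was 1.92% at day 18, 4.67% at day 22, 4.65% at day 29 and 3.25% at day 36. MEF1 lay above LowK D35, LowK D52 and MidK2 D18, so the groups overlapped. Within each of the LowK and MidK1 courses the later library was higher at each step, and MidK1 D56 was above every other library with an interval of 8.0 to 10.2%. Over every listed site the sum was 1.07% in MEF2, 1.28% in LowK D35 and 3.27% in LowK D52, where the fourth site entered it. All 3 sites were highest in MidK1 D56, where they stood at 8.69, 8.82 and 10.2%.

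A deletion of chrX:102185028-102185029 in the Rps4x 3′ UTR, outside the rule and covered by 944 to 2045 reads, gave a separate view of the same transcripts. Its reference share was 5.83% in MEF1, 1.15% in MEF2, 2.98, 4.95 and 6.95% in LowK, 6.31, 8.99 and 11.5% in MidK1, and 2.89, 5.51, 5.76 and 4.14% in MidK2. MidK1 D56 was again above the rest, and within LowK and MidK1 each later library was again higher. MEF1 was above all 4 MidK2 libraries at the deletion, and at the 3 sites only above MidK2 D18. Rps4x has many processed copies: 13 other annotated transcripts matched the 75 bases around 1 or more of the 4 sites at 90% identity or more. At the 3 sites listed in every table, each copy that covered the site carried the reference base and none carried the variant. For the deletion no copy matched by the same limits. How the authors placed reads that match several copies was not given in the sources used here, and the part of the copies in the Rps4x shares was not tested.

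G6pdx stayed at low reference shares in all libraries. Most of the sites summed, 9 of 12, were over 90% variant in every table listing them and may not be informative. Over its 12 sites listed in at least 10 tables, of which 9 to 12 had 20 reads in any library, the share was 2.33% in MEF1 and 0.580% in MEF2. It was 1.76, 1.71 and 3.92% in LowK at days 35, 52 and 56, and 4.47, 0.595 and 2.92% in MidK1 on the same days. In MidK2 it was 1.37% at day 18, 3.74% at day 22, 4.72% at day 29 and 1.27% at day 36. The groups overlapped, and all 11 neighbouring pairs in the order of the libraries had overlapping intervals. From MidK2 D29 to D36 the share was lower at all 12 sites. Several of these sites lie close together and can share reads, so they are not independent.

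The sum over every G6pdx site was further from this in 4 libraries. It was 9.59% in MEF2, 5.18% in MidK2 D18, 6.42% in D22 and 10.9% in D29, where sites listed in a single table and over 90% reference entered the sum. The single-table sites of G6pdx, 6 in number, all came from the tables of MEF2 and MidK2, whose lowest listed variant share was 5% against about 10% in the other 7 tables. Near-identical sequence was found for 16 of the 22 sites in G6pd2, a retrocopy of G6pdx expressed in the testis, which carried the reference base at 11 sites and the variant base at 4. Its part in the G6pdx shares was not tested.

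Prps1 was hardly measurable in fibroblasts. MEF1 had no Prps1 site with 20 reads and MEF2 had 1, with 0 reference reads of 24, which allows a share of up to 12.5%. In the 10 reprogrammed libraries 443 to 969 reads covered its 11 sites, and at 20 reads or more 20 of its 21 sites were listed only there. The share over the 11 sites was 5.81, 6.38 and 6.92% in LowK, 7.0, 7.44 and 8.19% in MidK1, and 8.03, 9.84, 8.41 and 9.18% in MidK2. It thus lay in a narrow band, and all 10 neighbouring pairs in the order had overlapping intervals. In MidK2 D36, where Hprt was at 0.923%, this sum was at 9.18%.

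That band came from a single position. At chrX:140475703-140475703 in the 3′ UTR the reference share was 48.1 to 67.0%. This site gave 63.8 to 95.2% of the reference reads that the 11 sites had in a library. The other 10 sites were at 0 to 10.7% each. Summed over those 10 sites, Prps1 was at 0.306, 1.19 and 0.649% in LowK, 1.53, 1.74 and 3.28% in MidK1, and 0.555, 1.54, 2.17 and 1.07% in MidK2. MidK1 D56 was the highest of the 10 libraries in this sum. The outlying site lies 4 bases from an insertion that 8 tables list between chrX:140475699 and 140475700, with a reference share of 76.8 to 85.4%. In MEF2 the outlying site, under the coverage limit, had the variant in 4 of 13 reads, while 7 other sites there with 11 to 24 reads had no reference read. The part of the insertion in the share of this site was not tested.

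**Figure D3:**
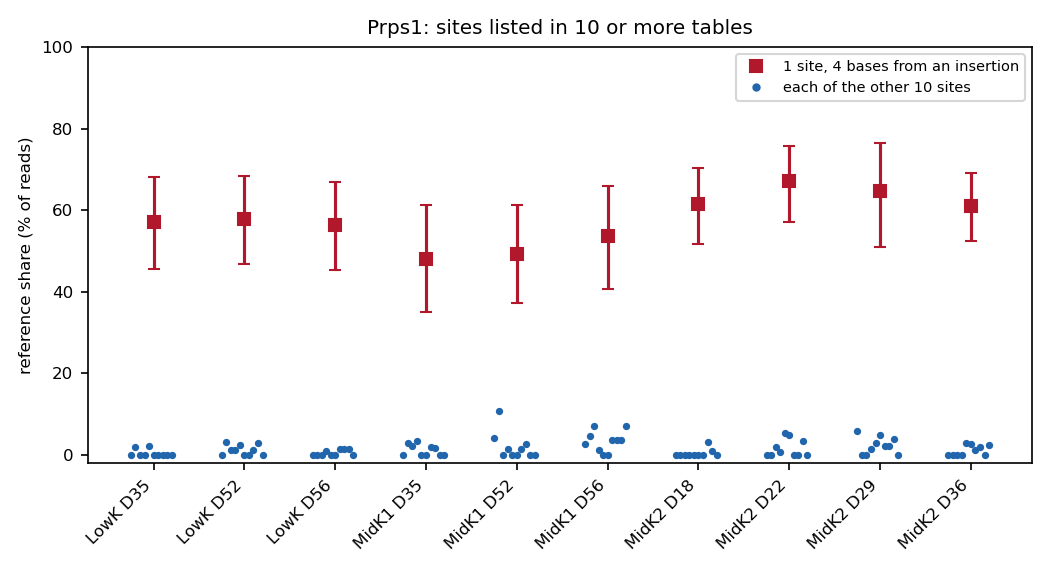
Reference share in % of reads (vertical axis) at the Prps1 sites listed in at least 10 tables, in the 10 reprogrammed libraries (horizontal axis): the site 4 bases from an insertion as red squares with 95% Wilson intervals, the other 10 sites as blue points. The single site lies between 48.1 and 67.0% and the others between 0 and 10.7%.

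The sum over every listed Prps1 site was 16.4% in MidK2 D36 and 11.7% in MidK2 D29, above the 9.18 and 8.41% of the 11 sites. The difference came from 3 sites listed in 1 table each at over 90% reference. Among the 21 Prps1 sites 8 had a near-identical copy in Prps1l3 or Prps1l1, and the outlying site had none.

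Pgk1 gave almost no information. Its only site, in the first exon, reached 20 reads in LowK D52 alone, where all 23 reads carried the variant. With fewer reads the same site was listed in MEF1 (9 of 10 reads variant), LowK D35 (11 of 13) and MidK1 D35 (12 of 12). It was not listed in LowK D56, MidK1 D52, MidK1 D56, MEF2 or any MidK2 library. Both processed copies that match the site, Gm5537 and Pgk1-rs7, carry the reference base. No comparison of Pgk1 was possible.

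Each reprogrammed library was then compared with the MEF library that came from the same set of tables, at sites listed in both, to ask which members were read more from the reference allele than in fibroblasts. A call required at least 5 points of difference in share and an adjusted p under 0.05 (Fisher's exact test on reads, Benjamini-Hochberg over all genes of the pair). This call was made in 5 of 34 member tests, all higher than MEF, which is 14.7%. Over all genes and the same 10 comparisons 25.5% of tests were called higher and 1.76% lower. None of the 34 passed a difference of 20 points, against 7.43% of all tests higher and 0.0585% lower. At any size of difference 15 tests were higher and 2 lower at an adjusted p under 0.05, that is 44.1% and 5.88%, against 30.5% and 4.51% of all tests.

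Hprt accounted for 4 of the 5 calls. It was higher than MEF2 by 7.45 points in MidK2 D18, by 12.77 in D22 and by 7.64 in D29, with adjusted p-values of 3.46e-18, 4.89e-33 and 5.10e-18 by Fisher's exact test. It was higher than MEF1 by 6.17 points in MidK1 D56 (adjusted p = 2.13e-06, Fisher's exact test). It was also higher than MEF1 by 4.04 points in MidK1 D35 and 3.34 in D52, under 5 points (adjusted p = 9.24e-04 and 0.00378, Fisher's exact test), and passed in no LowK library. In MidK2 D36 the difference was 0.56 points (adjusted p = 0.457, Fisher's exact test). In the same comparisons the median gene was 1.77, 7.95, 6.24, 3.88 and 0.61 points higher than MEF, in the order MidK2 D18, D22, D29, MidK1 D56 and MidK2 D36. The share of all genes called higher than MEF at 5 points was 15.9% in MidK2 D18, 59.9% in D22, 45.9% in D29 and 17.2% in D36. It was 21.6, 22.6 and 39.1% in MidK1 and 3.07, 9.41 and 17.2% in LowK, in order of days. Placed among all genes tested, the Hprt difference exceeded that of 86.8% of them in MidK2 D18, 73.8% in D22, 59.7% in D29, 59.0% in MidK1 D56 and 47.9% in MidK2 D36.

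Rps4x was called in MidK1 D56, 6.68 points above MEF1 (adjusted p = 3.52e-29, Fisher's exact test). In MidK2 it was higher than MEF2 by 1.21, 3.96, 3.94 and 2.53 points at days 18, 22, 29 and 36, each under 5 points. The adjusted p-values ran from 2.58e-38 to 1.67e-05 by Fisher's exact test. They are too small even for counting error, because a read over several sites is counted at each. Against MEF1 Rps4x was lower by 1.48 points in LowK D35 and higher by 1.60 in LowK D56 and 2.89 in MidK1 D52, with adjusted p-values of 7.09e-07, 5.83e-04 and 2.26e-08 by Fisher's exact test. The median gene differed from MEF1 by -0.88, 1.60 and 0.62 points in these libraries, in the same order. In LowK D52 and MidK1 D35 its differences of -0.44 and 0.05 points did not pass.

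G6pdx was not called at 5 points in any of its 10 comparisons. It was higher than MEF2 by 3.32 points in MidK2 D22 and by 4.66 in D29, with adjusted p-values of 8.07e-05 and 5.26e-07 by Fisher's exact test, and lower than MEF1 by 2.60 points in MidK1 D52 (adjusted p = 0.0464). Prps1 could be compared with MEF2 at 1 site only, where the differences were 0 to 1.37 points and none passed the test. Prps1 had no comparison with MEF1 and Pgk1 none at all.

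**Figure D4:**
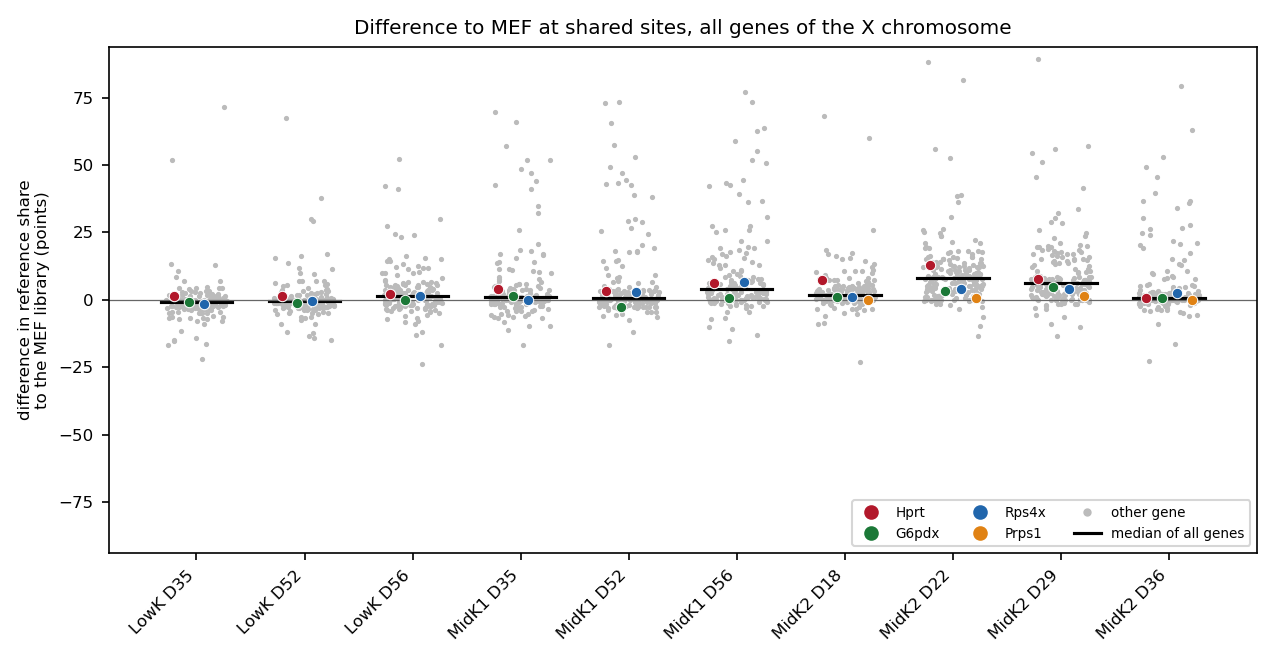
Difference in reference share to the MEF library of the same set of tables, in percentage points (vertical axis), at shared sites in the 10 reprogrammed libraries (horizontal axis): grey points are genes, black lines the median of all genes, and coloured points the members. Members lie between -2.60 and 12.77 points, while some other genes exceed 50 points.

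Over libraries, the mean Hprt share was 0.669% ± 0.434 (SD, n = 2) in MEF and 5.46% ± 3.62 (SD, n = 10) in reprogrammed libraries, summed over the sites in at least 10 tables. An exact permutation test over the 66 ways to choose 2 of 12 libraries gave a two-sided p of 0.106 (adjusted p = 0.369 over 139 genes). For Rps4x the means were 1.53% ± 1.15 (SD, n = 2) and 3.79% ± 2.33 (SD, n = 10), with an exact permutation p of 0.227 and an adjusted p of 0.503. For G6pdx they were 1.45% ± 1.23 (SD, n = 2) and 2.65% ± 1.49 (SD, n = 10), with an exact permutation p of 0.303 and an adjusted p of 0.547. No member, and none of the 139 genes, passed the exact permutation test after adjustment; 16 genes and no member had an unadjusted p under 0.05. The smallest p this test allows is 0.0152, and the days of a course are not separate cultures. Over every listed site the Hprt, Rps4x and G6pdx differences were 4.94, 2.26 and -2.45 points, so G6pdx changed sign with the choice of sites. The exact permutation p-values were then 0.0909, 0.197 and 0.364 (adjusted p = 0.516, 0.538 and 0.637 over 142 genes), and 13 genes and no member had an unadjusted p under 0.05. Within the set of MEF1, LowK and MidK1 the Hprt difference was 3.15 points, and within the set of MEF2 and MidK2 it was 7.11 points; neither set can give an exact permutation p under 0.05.

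MidK1 and LowK were compared on matched days, the pair of courses that differ by Shield1 in their labels, with 1 library each. Hprt was higher in MidK1 by 2.44 points at day 35, 1.78 at day 52 and 3.98 at day 56, with adjusted p-values of 0.0269, 0.0896 and 0.00117 by Fisher's exact test. Rps4x was higher in MidK1 by 1.53, 3.33 and 5.08 points, with adjusted p-values of 5.38e-07, 3.79e-14 and 2.14e-16. Prps1 was 1.07 to 1.51 points higher and passed on no day. Without sites within 10 bases of an insertion or deletion, which drops the outlying Prps1 site, it was higher in MidK1 by 0.98, 0.56 and 2.65 points, and day 56 passed (adjusted p = 0.188, 0.677 and 0.00387, Fisher's exact test). The outlying site itself was lower in MidK1 on each day, at 48.1, 49.2 and 53.6% against 57.1, 57.9 and 56.4%. G6pdx was 3.50 points higher at day 35 (adjusted p = 0.0359, Fisher's exact test), and its differences at days 52 and 56 were -1.48 and -0.63 points and did not pass.

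Of these 12 tests, 1 was called at 5 points, Rps4x at day 56, and 6 were higher at any size, which is 50%. Over all genes and the 3 days 24.1% of tests were called higher and 0.416% lower at 5 points, and 33.9% were higher and 0.416% lower at any size. None of the 12 passed 20 points, against 8.17% of all tests higher and 0.139% lower. The share called higher at 5 points was 21.7% at days 35 and 52 and 28.8% at day 56. The median gene was 2.0, 1.92 and 2.90 points higher in MidK1 at days 35, 52 and 56. At day 56, 8 of 10 Hprt sites, 8 of 11 Prps1 sites and 3 of 3 Rps4x sites were higher in MidK1, against 4 of 10 G6pdx sites. Over the 3 days as units, Hprt was 2.76% ± 0.350 (SD, n = 3) in LowK and 5.49% ± 1.47 (SD, n = 3) in MidK1, with an exact permutation p of 0.1, the smallest this design allows. Rps4x was 2.24% ± 1.57 (SD, n = 3) and 5.56% ± 3.33 (SD, n = 3), with an exact permutation p of 0.2, and its LowK D56 was above its MidK1 D35. The exact permutation p was 0.1 for Prps1, outlying site included, and 0.9 for G6pdx. Hprt, Prps1 and Rps4x were higher in MidK1 on each of the 3 days. Paired by day, the exact permutation p of each was 0.25, again the smallest possible.

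Between consecutive days 3 of 28 member tests were called at 5 points, all of them Hprt in MidK2. It rose by 5.32 points from day 18 to day 22, fell by 5.14 from day 22 to day 29 and fell by 7.08 from day 29 to day 36, with adjusted p-values of 3.11e-05, 5.62e-04 and 8.19e-19 by Fisher's exact test. From MidK1 D52 to D56 it rose by 2.82 points (adjusted p = 0.0410, Fisher's exact test). Over all genes and all steps 11.9% of tests were called higher and 5.10% lower. In the MidK2 steps 29.7% of genes were called higher in the first step, 3.21% lower in the second and 24.8% lower in the third. Rps4x rose by 1.04 and 2.04 points in LowK and by 2.84 and 3.79 points in MidK1, with adjusted p-values from 1.66e-07 to 5.85e-05, rose by 2.75 points from MidK2 D18 to D22 (adjusted p = 1.75e-10, Fisher's exact test), and fell by 1.40 points from D29 to D36 (adjusted p = 2.49e-04, Fisher's exact test). G6pdx rose by 2.33 points from MidK1 D52 to D56 (adjusted p = 0.0304, Fisher's exact test). It fell by 3.87 points from MidK1 D35 to D52 and by 3.96 points from MidK2 D29 to D36 (adjusted p = 9.13e-04 and 3.40e-07, Fisher's exact test). Prps1 passed in none of its 7 tests. Without the sites near an insertion or deletion it passed in 1 of the 7, with a rise of 1.63 points from MidK2 D18 to D22 (adjusted p = 0.0288, Fisher's exact test).

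The levels of the members were set beside those of the whole chromosome. The median reference share of all genes measured at sites in at least 10 tables was 3.75% in MEF1 and 1.39% in MEF2, 2.41, 2.82 and 5.18% in LowK, 4.80, 5.31 and 9.70% in MidK1, and 4.46, 9.91, 8.70 and 2.40% in MidK2. Rps4x was below this median in all libraries except MidK2 D36, and G6pdx was below it in all 12. Hprt was above it in LowK D35, MidK1 D35, MidK2 D18 and MidK2 D22. MEF1 itself was higher than MEF2 over the chromosome: Rps4x was 1.63 points higher in MEF1 (adjusted p = 1.79e-08, Fisher's exact test), Hprt 0.61 and G6pdx 2.25 points higher without passing, and 29.9% of 174 genes were lower in MEF2 at any size of difference. A comparison with MEF1 therefore starts from a higher level than a comparison with MEF2.

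Genes that escape X inactivation were set beside the members. Over sites in at least 10 tables, Ddx3x, an RNA helicase, had reference shares of 36.4 to 55.4% across the 12 libraries, Eif2s3x, a translation initiation factor, 39.4 to 51.0%, and Kdm5c, a histone demethylase, 28.1 to 41.1%. The highest share of a member, 13.1% for Hprt in MidK2 D22, was below the lowest of any of these 3 genes. The 3 were not the lowest of the escape genes tested: at the sites shared with MEF, Utp14a went down to 16.3% in a reprogrammed library, and 1810030O07Rik was at 1.19 to 4.29% in MEF.

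**Figure D5:**
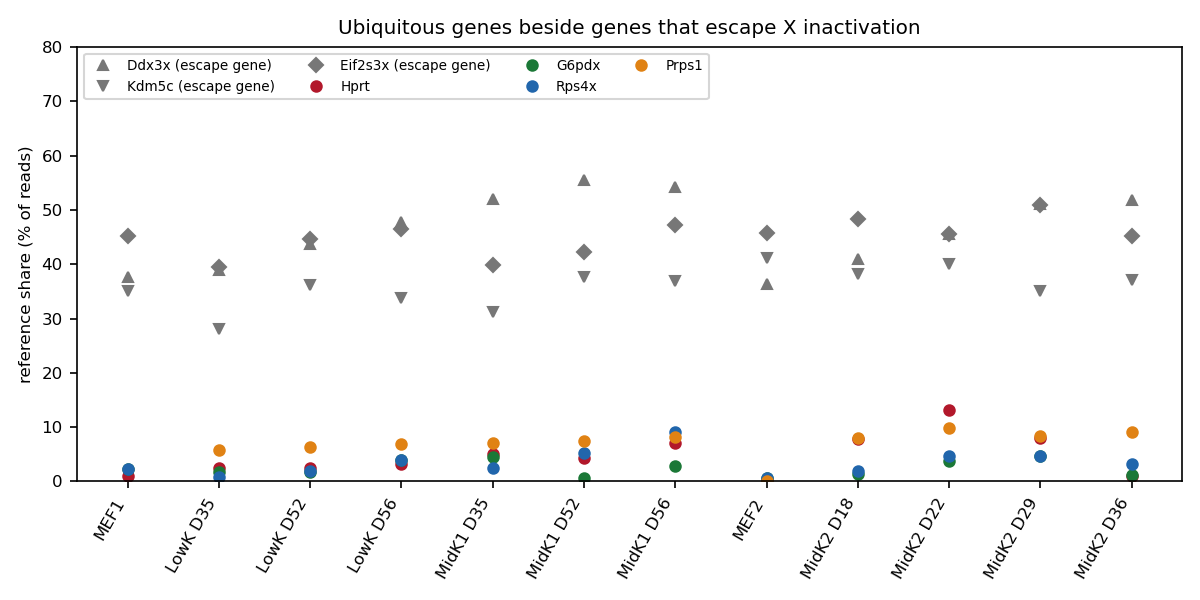
Reference share in % of reads (vertical axis) of Hprt, G6pdx, Rps4x and Prps1 (coloured circles) and of Ddx3x, Kdm5c and Eif2s3x (grey symbols) in the 12 libraries (horizontal axis), over sites in at least 10 tables. The members lie between 0 and 13.1%, and the grey symbols between 28.1 and 55.4%.

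The nearest genes measured in all libraries were compared with the members. Aifm1 and Htatsf1, on either side of Hprt at 4.47 and 4.03 Mb, were at 12 and 12.1% in MidK2 D22 and at 2.16 and 0.543% in MidK2 D36. Cox7b, 0.165 Mb from Pgk1, was at 3.61% in MEF1, 0.493% in MEF2, 8.82% in MidK1 D56 and 8.84% in MidK2 D22. Vbp1, beside G6pdx, was at 19.8% in MidK1 D56. Psmd10, 0.472 Mb from Prps1, was at 0.838% in MidK2 D36, near the 1.07% of Prps1 without the outlying site. Elsewhere the 2 genes could differ more. Psmd10 was at 7.89% in MidK2 D22 and 7.39% in MidK1 D35, against 1.54 and 1.53% for Prps1 without that site. In LowK D52 Psmd10 was the lower, at 0.742 against 1.19%. Ogt and Rlim, beside Rps4x, were at 10.7 and 3.92% in MidK1 D56.

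By mean absolute difference over the 12 libraries, among 85 genes with at least 100 reads in each, the genes most like Hprt included Pgrmc1 and Htatsf1 (1.30 and 1.57 points, against a median of 3.12 over all genes). Those most like Rps4x were Slc25a5, Eif1ax and Mid1ip1 (0.740, 0.904 and 0.963 points), and those most like G6pdx were Slc25a5, Huwe1 and Tbl1x (1.20, 1.22 and 1.29 points). These distances describe the libraries and carry no test.

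Other X-linked genes of related function were taken from lists chosen with earlier results of these data known. Of 19 tested genes of sugar, nucleotide and energy metabolism, 14 were called higher than MEF at 5 points in at least 1 library and none lower, and 3 at 20 points: Sat1, which acetylates polyamines, Atp6ap2, an accessory protein of the proton pump, and Timm17b, a part of the mitochondrial import machinery. Their highest shares were 23.9, 35.3 and 32.6%, from 1.38 to 5.30% in MEF. Of 19 tested genes of ribosome, translation and RNA processing, 9 were called higher at 5 points, 2 lower and none at 20 points. Of 7 tested escape genes, 3 were called higher and 3 lower at 5 points in at least 1 library, and 1810030O07Rik, higher than MEF by at least 20 points in 9 libraries, was the only one past 20 points. Over all 206 genes tested against MEF 59.7% were called higher at least once at 5 points and 17.5% at 20 points, and 15 were called lower at 5 points. Of the members, 2 of the 4 tested were called higher at least once at 5 points and none at 20.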

How the data were processed

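Poly(A) RNA of 12 libraries was sequenced as paired reads on a NextSeq500, per the labels, and X-linked variants were called against mm10 by the authors in CLC Genomics Workbench (Basic Variant Call), per the series description and the submitters' processing notes. The aligner, read filters and caller settings were not given in the sources used here. The tables hold, per the file headers, a count of variant reads and a count of covering reads, both unnormalised, and the percent of variant reads. An average base quality score, per the file headers in 7 tables, served only as a filter in an alternative. In those 7 tables counts started at 5 and percents at about 10 (MEF1, LowK, MidK1), and at 2 and 5 in the other 5 (MEF2, MidK2). Total coverage over sites with at least 20 reads was 138579 to 279031 reads per library, in 193 to 339 genes, with a median of 35 to 39 reads per site.

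Single-base variants with at least 20 reads were kept, 1 allele per position and library (69 second alleles dropped). Reads were summed per gene. Libraries were compared at shared positions and alleles with two-sided Fisher's exact tests (SciPy 1.17.1), Benjamini-Hochberg adjusted over all genes of a pair, and over libraries with exact permutation tests. On simulated reads with the coverages of MidK1 D56 against MEF1 (156 genes), 11 of 20 genes changed by 10 points were called at 5 points, 20 of 20 changed by 30 points at 20 points, and 0 of 116 unchanged genes. The simulated reads were drawn independently at each site, without shared reads or spread between libraries. Between the real libraries MEF1 and MEF2, 5.17% of 174 genes were called lower in MEF2 at 5 points and 0 higher. Site annotation and windows came from GENCODE M21 (GRCm38), and copies from a search of its transcripts with BLAST 2.17.0 (75-base windows, at least 50 aligned bases at 90% identity). The members and gene lists were chosen with earlier results of these data known. Named were the 5 members, 3 escape genes, the nearest measured gene on each side, the 3 genes most alike, and list genes called at 20 points. A gene that this rule names is not reported here. P-values measure only the spread between these libraries or the counting of reads. Read-based p-values and intervals are too small where a read covers several sites of a gene, because it was counted at each. Alternatives changed the coverage minimum, the sites used, the caller limits, the base quality and the MEF library.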

Additional observations from a re-analysis of the deposited data

Results flagged for a closer look

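Rps4x differed between MidK1 and LowK at day 56 by 5.08 points of reference share (9.03% against 3.95% of reads), past the 5-point size in a test of the difference between the 2 libraries (adjusted p = 2.14e-16, Fisher's exact test). All 3 sites were higher in MidK1, and the deletion in its 3′ UTR was at 11.5% against 6.95%. The 3 sites are not separate readings, because neighbouring sites share reads. With the 3 days as units the exact permutation p for Rps4x was 0.2. In the same comparison 28.8% of all genes were called higher in MidK1. In the 4 members tested, with the outlying site kept in Prps1, no reprogrammed library was set apart from the other 9 by the gap test for outliers. Rps4x in MidK1 D56 came just under the limit of that test.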

How the results depend on the processing

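The 5 calls against MEF at 5 points (of 34 tests) were 5 or 6 under 10 of the 11 other settings: coverage of at least 10 or 50 reads, removal of sites over 90% variant everywhere, sites in all 12 tables, equal caller limits, base quality of at least 30, either MEF library for all comparisons, and 2 settings chosen after seeing the data (without sites near an insertion or deletion, without sites listed in 1 table). Leaving out sites listed in 1 table could not change these calls, because a comparison uses only sites listed in both libraries. The base quality limit could act only on MEF1, LowK and MidK1, the libraries with a score. With the best-covered site of each gene alone there were 3. The calls lost were Hprt in MidK1 D56 (8.55 points, adjusted p = 0.139) and in MidK2 D29 (4.29 points, adjusted p = 0.137, Fisher's exact test), on fewer reads. Without sites over 90% variant everywhere G6pdx was called in MidK2 D29 (6.87 points). The single MidK1 call against LowK became 0 with the best-covered site, where Rps4x at day 56 differed by 4.75 points, and 2 without sites over 90% variant everywhere, where G6pdx at day 35 was added (6.84 points, adjusted p = 0.0480, Fisher's exact test). Calls against MEF at 20 points numbered 0 under the same 11 settings. No member passed the permutation test under them, with each reprogrammed library left out in turn (adjusted p of the lowest member 0.391 to 0.55, exact permutation test), or within each set of tables, where the design is too small to pass. With 1 MEF library alone the permutation test is also too small to pass. Of 452 differences that kept their call, 23 changed sign. Replacing the summed share by the median over sites moved 24 of 48 shares outside their Wilson interval. The groups share only replicate number 1, so no block by replicate was fitted. MidK1 and LowK paired by day, chosen after seeing the data, changed no member's call, since 3 pairs allow no exact permutation p below 0.25. Depth limits Prps1 and Pgk1 in MEF, where at most 24 reads cover a site.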

Other observations

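In Hprt, insertions and deletions listed in at least 11 tables mostly had reference shares above those of the single-base sites around them. A deletion at chrX:53021310-53021310, listed in all 12 tables, had 5.71 to 25.4% and was at 9.68% in MEF1 (3 of 31 reads) and 7.69% in MEF2 (7 of 91), where the 10 single-base sites summed to 0.976 and 0.361%. An insertion between chrX:53021317 and 53021318, listed in all tables except that of MEF1, was at 0% in MEF2 (0 of 60 reads) and 2.08% in MidK2 D36, and at 10.3 to 34.2% in the other 9 libraries. At this insertion MEF2 and MidK2 D36 were the lowest libraries, as in the Hprt sum over single-base sites. In Rps4x the 3′ UTR deletion exceeded the sum of the 3 single-base sites in each of the 12 libraries.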
